A study of Homo sapiens with 60 samples.

Results

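The genes described here encode the nuclear-encoded subunits of the 5 complexes of mitochondrial oxidative phosphorylation. They were taken by name. A protein-coding row of the count table was a member when its symbol began with NDUFA, NDUFB, NDUFC, NDUFS or NDUFV (complex I), SDH (complex II), UQCR (complex III), COX4 to COX7 (complex IV) or ATP5 (complex V), with the assembly factors NDUFAF and SDHAF left out. This gave 88 of the 60675 genes in the table, with 40 in complex I, 4 in complex II, 9 in complex III, 15 in complex IV and 20 in complex V. Of these, 83 passed the filter on low counts and were tested among 17851 genes. The 5 that did not pass are tissue-restricted isoforms or copies, COX4I2, COX6A2, COX7A1, COX7B2 and ATP5MGL, of which COX4I2 had no count in any library. A further 195 rows matched the symbols but are not protein-coding, mostly pseudogenes, and were left out.

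RNA was sequenced from SW1783, an established human astrocytoma line, after 24 h with a herbal extract or with vehicle (DMSO), in 60 libraries. The water extracts Yijin-tang (3 libraries per dose) and Soshiho-tang (2 per dose), both decoctions of several herbs, were given at 500, 100 and 20 µg/mL. The ethanol extracts of Zizyphi Semen, Longan Arillus and Liriopis seu Ophiopogonis Tuber had the same 3 doses and that of Schisandrae Fructus at 310, 62 and 12.4 µg/mL, each with 3 libraries per dose. The ethanol extracts of Polygalae Radix (30, 6 and 1.2 µg/mL) and Aucklandiae Radix (160, 32 and 6.4 µg/mL) had 1 library per dose, and the vehicle had 3 libraries. According to the study's design, an extract whose IC20 (the concentration that inhibits by 20%) lay under 500 µg/mL had that concentration as its high dose. By their doses these are Schisandrae Fructus, Polygalae Radix and Aucklandiae Radix, while the other extracts had 500 µg/mL. The design also says that samples with too little RNA were left out. The cells all grew in Leibovitz's L-15 medium. The labels and the design text give different vehicle concentrations. Comparisons set an extract's high dose against its own low dose, because the vehicle libraries form a library set of their own by their library names and treatment and set cannot be told apart there.

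Complexes I to IV pass electrons from NADH (complex I) and succinate (complex II) through ubiquinone (complex III) and cytochrome c to oxygen (complex IV). Complexes I, III and IV pump protons across the inner mitochondrial membrane, and complex V, the ATP synthase, uses the gradient to make ATP. Complex II alone is built wholly from nuclear genes, while the other complexes combine nuclear subunits with a few encoded in mitochondrial DNA. L-15 supplies galactose in place of glucose, and cells on galactose are known to rely more on this pathway for ATP.

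Libraries held 18.73 M to 35.52 M counts (median 25.79 M, M for mega), of which the members took 0.351 to 0.687%. Transcripts of the mitochondrial chromosome took 10.1 to 20.3%, with the highest share in the high-dose Polygalae Radix library. VIM (635 to 5670 counts-per-million, CPM), CD44 (812 to 2950 CPM) and SOX9 (43.1 to 89.4 CPM) were detected in every library. So were the glial markers GJA1 (111 to 209 CPM), SLC1A3 (9.54 to 31.5 CPM) and NES (1.05 to 9.01 CPM). The glial markers GFAP, S100B, AQP4 and ALDH1L1 reached at most 0.313 CPM. Of 14 markers of other cell types, KRT18 (median 116 CPM), SNAP25 (28.6), PTPRC (8.4) and MBP (6.14) had the highest medians and HBB had no count in any library. CPM is a share of a library, so fewer cells and less RNA per cell cannot be told apart. Nothing in the sources says that libraries of a group came from separate cultures, so p-values measure the spread between these libraries, which may be technical.

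The promoters of 3 members, chosen after their values were seen, show what the RefSeq promoter table (GRCh38.p14, 250 bases before to 50 after the start) holds for subunits that respond to the same extract. SDHA and UQCRC2 are shown because they had the lowest adjusted p among the rises in the Schisandrae Fructus comparison. NDUFA9 is shown because it was among the falls, where NDUFA5 had a lower adjusted p. Capitals mark matches on either strand to GCGCNTGCG (the letters searched for NRF1, a factor that binds promoters of respiratory genes), CCGGAAG (searched for the ETS factor GABP) or AANATGGCG (searched for YY1). By GENCODE 29 on GRCh38, SDHA lies at chr5:218241-256700, UQCRC2 at chr16:21952660-21983660 and NDUFA9 at chr12:4649095-4694317, all on the plus strand. The SDHA window is chr5:218070-218369 on the plus strand, the UQCRC2 window chr16:21953111-21953410 on the plus strand and the NDUFA9 window chr12:4648864-4649163 on the plus strand. The UQCRC2 window starts inside the gene as GENCODE draws it, since RefSeq places the start further in.
SDHA: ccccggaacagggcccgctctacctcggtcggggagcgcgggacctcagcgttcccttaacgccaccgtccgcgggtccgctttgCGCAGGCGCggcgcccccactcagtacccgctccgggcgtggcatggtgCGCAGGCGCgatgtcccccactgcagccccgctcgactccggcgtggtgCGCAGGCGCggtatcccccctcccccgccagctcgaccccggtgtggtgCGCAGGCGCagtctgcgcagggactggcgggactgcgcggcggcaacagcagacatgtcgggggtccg
UQCRC2: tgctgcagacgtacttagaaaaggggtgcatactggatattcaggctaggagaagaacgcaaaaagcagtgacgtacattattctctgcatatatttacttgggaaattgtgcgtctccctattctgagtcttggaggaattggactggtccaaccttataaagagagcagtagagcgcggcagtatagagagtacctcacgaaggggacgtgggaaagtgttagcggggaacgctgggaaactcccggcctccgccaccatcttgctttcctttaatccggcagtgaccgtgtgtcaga
NDUFA9: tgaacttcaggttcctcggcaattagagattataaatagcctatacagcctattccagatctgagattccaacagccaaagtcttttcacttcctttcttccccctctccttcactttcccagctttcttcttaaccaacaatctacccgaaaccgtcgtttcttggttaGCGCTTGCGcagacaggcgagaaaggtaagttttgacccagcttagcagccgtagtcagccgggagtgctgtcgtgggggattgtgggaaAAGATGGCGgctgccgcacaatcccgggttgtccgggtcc
The SDHA window held 4 matches to the NRF1 letters, all on the minus strand, the NDUFA9 window 1 NRF1 and 1 YY1 match, and the UQCRC2 window none. None of the 3 sets of letters was in the windows of NDUFA5, NDUFB10 or COX6B2 either. The table held 69 of the 88 members. The NRF1 letters were in 22 of them (31.88%, against 10.95% of 15842 protein-coding promoters), the GABP letters in 19 (27.54% against 14.23%) and the YY1 letters in 16 (23.19% against 4.81%). At least 1 of the 3 was in 40 members (57.97% against 25.91%). A match describes the letters only.

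In the vehicle libraries the members summed to 5151 ± 274 CPM (SD, n = 3), with 1742 ± 116 in complex I, 306.4 ± 5.72 in complex II, 626.8 ± 31.8 in complex III, 652.5 ± 51.6 in complex IV and 1823 ± 73 in complex V. In the replicated extracts the sum over all members at the high dose lay between 95.6 and 98.8% of the low-dose mean, as low as Soshiho-tang and as high as Yijin-tang. The sums of single complexes lay between 93.8 and 104% except for complex II with Schisandrae Fructus, at 115%. No test was run on sums, since members were chosen with results known.

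**Figure D1:**
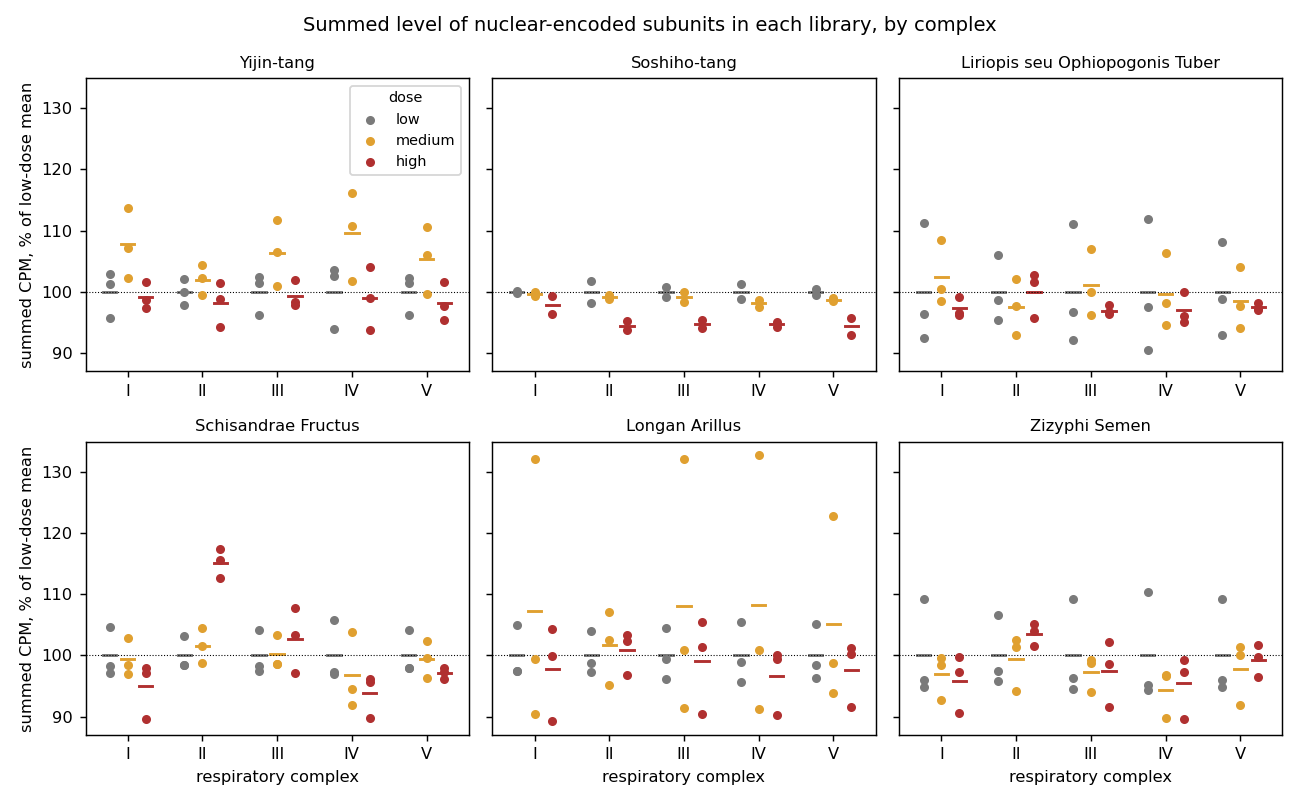
Each point is 1 library, the y axis gives the summed CPM of a complex's subunits as a percent of the mean of the low-dose libraries of the same extract, and bars are means. With Schisandrae Fructus the 3 high-dose libraries lie above all low-dose libraries in complex II, and 1 Longan Arillus medium-dose library stands apart in complexes I, III, IV and V.

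Schisandrae Fructus at 310 µg/mL changed 23 of the 83 tested subunit genes against 12.4 µg/mL, 8 upwards and 15 downwards (edgeR's quasi-likelihood test, Benjamini-Hochberg adjusted p under 0.05 over all genes). The genes that rose included SDHA, the flavoprotein subunit of complex II, and UQCRC2, a core subunit of complex III. Most of those that fell were grouped by symbol in complex I or complex V, which hold 40 and 19 of the 83 tested members. Over all genes 22.7% were called upwards and 23.3% downwards, so in this fit the shares of members called (8 and 15 of 83) were no higher than the background. The median log2 fold change was -0.04 over the members and 0.00 over all genes tested. In 10 members every high-dose library lay above every low-dose library (27.1% of all genes) and in 30 every one lay below (27.9%). The count depended on the model. A correction for transcript length and GC content gave 10 members upwards and 30 downwards (24.9 and 25.1% of all genes), a fit of only the compared libraries 13 and 25 (22.9 and 23.3%), and a fit without the low-count filter 12 and 23 (21.2 and 22% of the same genes). In these fits the downward share of the 83 members lay above that of all genes and the upward share below it. Without replicate 3 of the medium-dose Longan Arillus group, a library that stands apart and enters the shared estimate of spread, 10 were called upwards and 21 downwards (24.4 and 24.8% of all genes).

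SDHA binds the flavin that takes electrons from succinate. It was at 104, 93.3 and 99.8 CPM in the low-dose libraries, 103, 107 and 99.2 at the medium dose and 139, 142 and 150 at the high dose, against 106, 103 and 106 in the vehicle libraries. All 3 high-dose libraries lay above every other library of this extract and of the vehicle. The log2 fold change of high against low dose was 0.54 ± 0.05 (SE, adjusted p = 2.61e-12), and that of the medium dose was 0.06. Reads of SDHA can be shared with 4 pseudogenes, which held 18.6% of the counts of the family. The summed pseudogenes were at 24.6, 23.9 and 23.2 CPM at the low and 24.6, 28.8 and 27.1 CPM at the high dose, and with their counts added to SDHA the log2 fold change was 0.47.

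Of the other 3 subunits of complex II, 1 was called, in the opposite direction. SDHB, which carries the iron-sulphur clusters, was at 70.4, 63.0 and 64.6 CPM at the low and 67.9, 74.7 and 76.8 CPM at the high dose (log2 fold change 0.15 ± 0.08, adjusted p = 0.135). The membrane anchor SDHC fell by 0.19 ± 0.06 on the log2 scale (adjusted p = 0.00464), from 92.8, 96.0 and 90.6 to 89.4, 76.8 and 78.6 CPM, and the call was lost without high-dose replicate 2. The other anchor, SDHD, was at 44.7, 45.0 and 42.3 against 52.8, 46.4 and 49.2 CPM (0.17 ± 0.08, adjusted p = 0.0684). The complex sum was 312, 297 and 297 CPM at the low and 349, 340 and 355 CPM at the high dose, a log2 ratio of 0.20 that was 0.01 without SDHA.

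**Figure D2:**
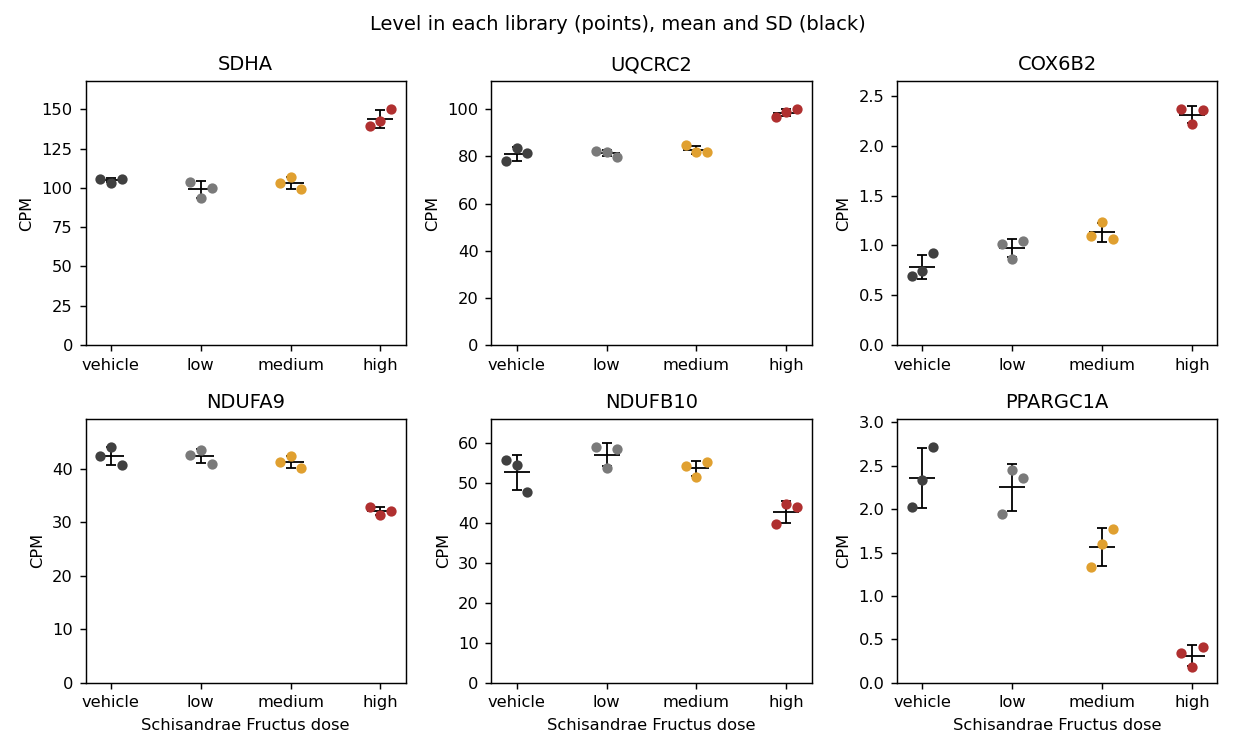
The CPM of 6 genes in each library is plotted for vehicle and for the low, medium and high dose of Schisandrae Fructus (points), with mean and SD in black. SDHA, UQCRC2 and COX6B2 are higher in all 3 high-dose libraries than in any other library shown, NDUFA9, NDUFB10 and PPARGC1A lower.

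In complex III, UQCRC2 rose from 82.3, 81.8 and 79.9 CPM to 96.9, 98.7 and 100.0 CPM, a log2 fold change of 0.28 ± 0.04 (adjusted p = 2.48e-08). The low-dose and vehicle libraries (78.0 to 83.5 CPM) lay within a few CPM of each other and the high-dose libraries did not overlap them. Its partner in the core scaffold, UQCRC1, was at 161, 153 and 154 CPM against 160, 175 and 187 CPM (0.16 ± 0.08, adjusted p = 0.0949), with the first high-dose library inside the low-dose range. UQCRFS1, the Rieske iron-sulphur protein that passes electrons on, differed by 0.01 ± 0.07 (adjusted p = 0.898). None of the 6 small subunits was called. CYC1, the cytochrome subunit of the complex, is outside the symbol rule and rose by 0.18 ± 0.06 (adjusted p = 0.0157), and CYCS, cytochrome c itself, by 0.24 ± 0.08 (adjusted p = 0.0107).

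In complex I the 7 core subunits that hold the flavin and the iron-sulphur clusters stayed between -0.12 and 0.12 on the log2 scale and none was called. NDUFS1, the largest of them, was at 64.6, 61.7 and 59.2 CPM at the low and 63.7, 61.4 and 61.0 CPM at the high dose, a difference of 0.00 ± 0.04. NDUFV1, the subunit that binds NADH, differed by -0.03 ± 0.08 (adjusted p = 0.743).

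Of the 33 members grouped as accessory subunits of complex I, which surround the core, 2 rose and 7 fell. Over all genes 22.7% were called upwards and 23.3% downwards. The 33 were grouped by symbol and include NDUFA4, NDUFA4L2 and the readthrough gene NDUFC2-KCTD14. NDUFA9 fell from 42.5, 43.5 and 40.9 to 32.8, 31.4 and 32.1 CPM, a log2 fold change of -0.40 ± 0.07 (adjusted p = 4.04e-06). NDUFA5 (chr7:123536997-123558255, minus strand) fell from 59.2, 60.6 and 56.7 to 46.1, 44.3 and 48.5 CPM (-0.35 ± 0.06, adjusted p = 2.71e-06), and NDUFB10 (chr16:1959508-1961975, plus strand), a membrane-arm subunit, from 58.9, 53.8 and 58.3 to 39.6, 44.6 and 44.0 CPM (-0.41 ± 0.10, adjusted p = 0.000502). High-dose and low-dose libraries did not overlap in any of the 3. NDUFA4, first assigned to complex I and now regarded as a subunit of complex IV, fell by 0.32 ± 0.09 (adjusted p = 0.00347), and NDUFB1, NDUFB2 and NDUFB5 by 0.34, 0.31 and 0.17. NDUFB2 overlaps ADCK2 on its own strand and BRAF on the other. NDUFB2 lost its call without low-dose replicate 1 and NDUFB5 in 4 of the 6 fits that leave out 1 library. The 2 that rose were NDUFV3, a small subunit next to the NADH site (47.4, 43.9 and 46.3 to 53.1, 56.8 and 59.0 CPM, 0.30 ± 0.06, adjusted p = 7.58e-05), and NDUFAB1, the mitochondrial acyl carrier protein (0.37 ± 0.11, adjusted p = 0.00566).

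Complex IV had 11 tested nuclear subunits, of which COX7B and COX7C fell and COX6B2 rose. COX6B2 (chr19:55349306-55354814, minus strand) is the testis isoform of COX6B and was near the limit of detection, at 1.01, 0.87 and 1.04 CPM at the low and 2.37, 2.21 and 2.36 CPM at the high dose. Its high-dose libraries did not overlap any other library of the series, and the log2 fold change was 1.25 ± 0.19 (adjusted p = 4.63e-07). Here and below, standard errors of COX6B2 are likely too small (see the processing section). The ubiquitous form COX6B1 differed by -0.21 ± 0.09 (adjusted p = 0.0545). COX7B fell by 0.26 ± 0.10 (adjusted p = 0.0223), a call lost without high-dose or low-dose replicate 1, and COX7C by 0.24 ± 0.10 (adjusted p = 0.0474), a call lost whichever of the 6 libraries was left out. COX4I1, which regulates the enzyme, and COX5A differed by -0.05 ± 0.10 and 0.02 ± 0.07. The sum over the complex was 711, 652 and 655 CPM at the low and 604, 647 and 643 CPM at the high dose, without overlap and by a log2 ratio of -0.09.

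Complex V is built from a catalytic F1 head, a central and a peripheral stalk and a membrane part with the rotating c-ring. ATP5F1B, the catalytic beta subunit and the member with the most counts, rose from 435, 417 and 402 to 483, 463 and 458 CPM (0.16 ± 0.05, adjusted p = 0.00932), a call lost without low-dose replicate 3. ATP5F1A, the alpha subunit beside it in the head, was at 259, 242 and 243 against 246, 238 and 240 CPM (-0.04 ± 0.05, adjusted p = 0.550). The peripheral stalk subunit ATP5PB fell from 128, 121 and 126 to 106, 107 and 107 CPM (-0.23 ± 0.06, adjusted p = 0.00296), and ATP5PO of the same stalk by 0.25 ± 0.09 (adjusted p = 0.0182). ATP5PB overlaps WDR77 on the opposite strand, and how strand was used in counting is not known here. ATP5F1C of the central stalk fell by 0.23 ± 0.07, ATP5MG by 0.25 ± 0.10 and the inhibitor ATP5IF1 by 0.19 ± 0.08. The ATP5MG call was lost whichever library was left out, that of ATP5IF1 in 4 of 6 such fits and that of ATP5PO in 2.

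ATP5MK, a small membrane subunit, rose from 21.1, 16.6 and 16.5 to 24.2, 25.0 and 24.7 CPM (0.45 ± 0.13, adjusted p = 0.00420), with the vehicle libraries spread over the range of 15.4 to 23.0 CPM. ATP5MK overlaps TAF5 (mean of 7.9 CPM) on the opposite strand, and here too the use of strand in counting is not known. The readthrough gene ATP5MF-PTCD1 overlaps ATP5MF and PTCD1 on the same strand, so its reads are split by estimate. It rose by 0.31 ± 0.11 (adjusted p = 0.0216), a call lost with the length and GC correction and without low-dose replicate 1 or 3 or high-dose replicate 2. The 3 genes of the c-ring, ATP5MC1, ATP5MC2 and ATP5MC3, differed by -0.16, -0.13 and -0.29 with adjusted p of 0.0943, 0.248 and 0.0503. None of the 3 passed.

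**Figure D3:**
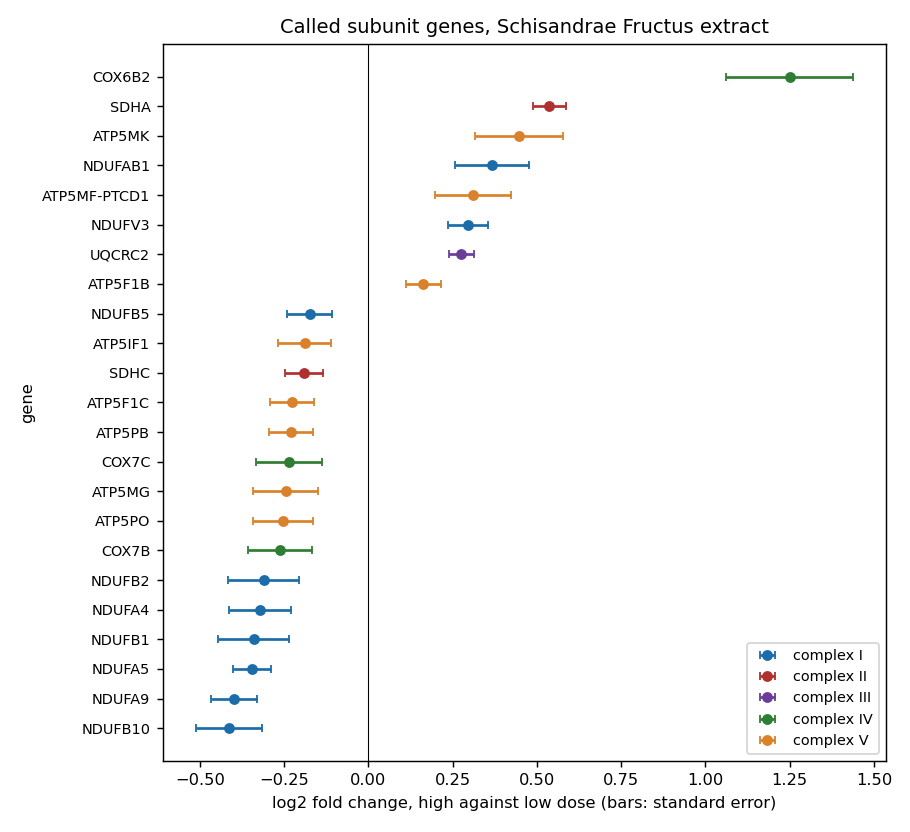
Points are the log2 fold changes of the 23 called subunit genes at 310 against 12.4 µg/mL Schisandrae Fructus, with bars of 1 standard error, coloured by complex. COX6B2 and SDHA have the largest rises and NDUFB10 and NDUFA9 the largest falls.

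Most differences were small. Among members with a mean of at least 10 CPM, 63 of 78 (80.8%) differed by less than 0.25 on the log2 scale with Schisandrae Fructus, against 60.6% of all genes at that level. With Soshiho-tang the shares were 98.7% and 78.3%, with Yijin-tang 100% and 94%, and with Zizyphi Semen 100% and 93.9%. With Liriopis seu Ophiopogonis Tuber and Longan Arillus they were 100% against 99.8% and 98.3%. The width of 0.25 was chosen after the values were seen.

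The genes around the complexes moved in both directions with Schisandrae Fructus. Of 14 regulators of respiratory gene transcription, 7 rose and 3 fell, where 22.7% of all genes were called upwards and 23.3% downwards. PPARGC1A, the coactivator known for driving mitochondrial biogenesis, fell from 1.94, 2.45 and 2.36 CPM to 0.34, 0.18 and 0.41 CPM (-2.84 ± 0.25, adjusted p = 1.07e-12). Its medium-dose libraries, at 1.33, 1.6 and 1.77 CPM, lay between both. ESRRA, a nuclear receptor that works with PPARGC1A, rose from 17.6, 15.5 and 15.4 to 22.5, 23.8 and 24.9 CPM (0.55 ± 0.07, adjusted p = 2.83e-08). The mitochondrial rRNA methyltransferase TFB1M rose by 1.17 ± 0.09 and the mitochondrial RNA polymerase POLRMT by 0.83 ± 0.06, whereas TFAM, which packs and transcribes mitochondrial DNA, fell by 0.32 ± 0.05. NRF1 itself differed by 0.09 ± 0.07 (adjusted p = 0.328).

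Of the 51 assembly factors tested, 17 rose and 9 fell with Schisandrae Fructus, with a median of 0.00. The shares of all genes called, 22.7% upwards and 23.3% downwards, apply to this list and to those that follow. Of the 78 proteins of the mitochondrial ribosome 20 rose and 7 fell, and of 24 import genes 8 rose and 6 fell. In the tricarboxylic acid cycle, which feeds complexes I and II, 6 of 16 genes rose and 1 fell. Those that rose included CS (0.10), citrate synthase, and DLST (0.30) and OGDH (0.27), subunits of the 2-oxoglutarate dehydrogenase complex. The gene that fell, DLD (-0.23, adjusted p = 0.00181), encodes the remaining subunit of that complex, which the pyruvate dehydrogenase complex also uses. None of the 13 subunits encoded in mitochondrial DNA was called at any dose in any replicated extract. The 6 glial markers tested were all called with Schisandrae Fructus, with VIM higher and CD44, SOX9, GJA1, SLC1A3 and NES lower. The 10 glial markers summed to 7514 to 7653 CPM at the low and 7122 to 7342 CPM at the high dose. Of 8 tested markers of other cell types 2 rose and 3 fell, and the 14 listed summed to 149.7 to 161.7 CPM at the low and 87.1 to 101.6 CPM at the high dose. The part of these markers in the subunit changes was not tested.

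Liriopis seu Ophiopogonis Tuber shares the library set of Schisandrae Fructus, so the difference between the responses was tested with an interaction term. Its own high dose (500 against 20 µg/mL) changed no member, at a background of 0% in both directions and with 0 members at an unadjusted p under 0.05, also by DESeq2. SDHA was at 97.9, 106 and 99.3 CPM at the low and 106, 104 and 97.2 CPM at the high dose. The response differed between the extracts in 6 of 83 members, against 31.1% of all genes. It was more positive with Schisandrae Fructus in SDHA (by 0.52 ± 0.07, adjusted p = 1.02e-07), UQCRC2 (by 0.27 ± 0.05, adjusted p = 5.72e-05) and COX6B2 (by 1.37 ± 0.30, adjusted p = 0.000386). It was more negative in NDUFA9 (-0.37 ± 0.10), NDUFB10 (-0.41 ± 0.14) and NDUFA5 (-0.28 ± 0.08), with adjusted p of 0.00212, 0.0208 and 0.00631. The count was 8 by DESeq2, 10 without the Longan Arillus library that stands apart, 12 without the low-count filter and 15 with the length and GC correction, under which NDUFA9 was not called. The high doses differ in µg/mL, and for the remaining 17 called members a difference from Liriopis seu Ophiopogonis Tuber was not shown.

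**Figure D4:**
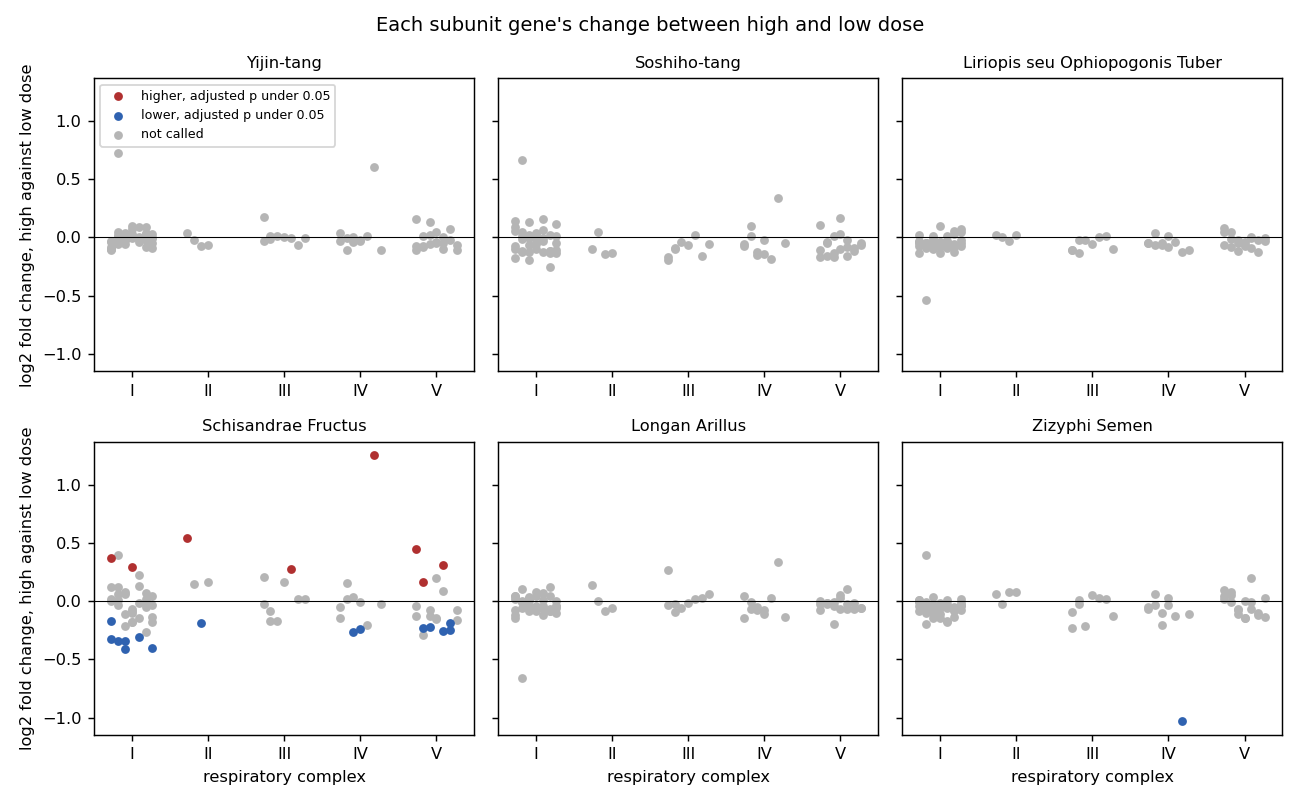
Each point is 1 tested subunit gene, with its log2 fold change of high against low dose on the y axis and its complex on the x axis, red or blue where the adjusted p was under 0.05. Calls fall in the Schisandrae Fructus panel except for COX6B2 with Zizyphi Semen, and the readthrough gene NDUFC2-KCTD14, which never exceeded 0.931 CPM, is not drawn.

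With Soshiho-tang no member was called at 500 against 20 µg/mL, where 10% of all genes were called upwards and 8.62% downwards. DESeq2 called 1 member, and 3 had an unadjusted p under 0.05 (7 without the Longan Arillus library that stands apart). Most differences were small and negative, in 58 of 83 members, with a median of -0.06 against 0.00 over all genes, and 43 members had both high-dose libraries below both low-dose libraries (30.3% of all genes) while 8 had both above (31.8%). ATP5F1A came closest, at 258 and 259 CPM at the low and 234 and 227 CPM at the high dose (-0.17 ± 0.06, adjusted p = 0.0512). SDHA, at 97.8 and 97.6 against 90.0 and 92.0 CPM, was lower at the high dose and did not pass (-0.10 ± 0.06, adjusted p = 0.273). The sum over all members was 5489 and 5486 CPM at the low and 5313 and 5183 CPM at the high dose, without overlap in any complex. A fit of only these 4 libraries called 12 members, all downwards, where it called 12.5% of all genes downwards and 14.7% upwards. The fit without the Longan Arillus library called 1 member downwards (10.1% of all genes).

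Around the members Soshiho-tang raised 5 of the 14 regulators, with MYC by 1.05 ± 0.06 (adjusted p = 1.66e-17), TFB1M by 0.51 ± 0.11 and ESRRA by 0.31 ± 0.09. PPARGC1A differed by -0.69 ± 0.26 (adjusted p = 0.0561). Of the 51 assembly factors 4 rose and none fell. For these lists too the shares of all genes called were 10% upwards and 8.62% downwards. Of the 16 genes of the tricarboxylic acid cycle 2 rose and 1 fell. OGDH, a subunit of the 2-oxoglutarate dehydrogenase complex, rose by 0.59 (adjusted p = 1.26e-12) and DLAT, a subunit of the pyruvate dehydrogenase complex, by 0.20 (adjusted p = 0.0165), while SUCLA2, a subunit of succinyl-CoA ligase, fell by 0.29 (adjusted p = 0.00667). Of the 6 glial markers tested 1 rose and 2 fell. SLC1A3, a glutamate transporter, was at 26.1 and 25.3 CPM at the low and 13.6 and 14.8 CPM at the high dose, and the 10 glial markers summed to 7816 to 7925 and 7829 to 8021 CPM. Of 8 tested markers of other cell types 1 rose and 4 fell, and the 14 listed summed to 169.3 to 173.1 CPM at the low and 97.5 to 104.2 CPM at the high dose. The part of these markers in the lower subunit level was not tested.

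Yijin-tang, which shares doses and library set with Soshiho-tang, changed no member either (3.67% of all genes upwards, 3.3% downwards). DESeq2 also called 0, 3 members had an unadjusted p under 0.05 and the median was -0.01. The count was 1 without low-dose replicate 1 and 1 without the Longan Arillus library that stands apart. COX6B2 had the lowest adjusted p, at 1.24, 0.71 and 0.94 CPM at the low and 1.25, 1.6 and 1.47 CPM at the high dose (0.60 ± 0.20, adjusted p = 0.0592). SDHA differed by 0.03 ± 0.05 and ATP5F1A by -0.08 ± 0.05. PPARGC1A fell by 0.67 ± 0.19 (adjusted p = 0.0203). The response of no member differed between the 2 decoctions (9.38% of all genes did), with 0 members at an unadjusted p under 0.05 and 0 called by DESeq2.

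Zizyphi Semen changed 1 member, COX6B2, which fell (3.65% of all genes did), and none rose (2.31% of all genes). COX6B2 was at 1.21, 0.86 and 0.88 CPM at the low, 0.58, 0.47 and 0.90 CPM at the medium and 0.66, 0.45 and 0.36 CPM at the high dose. All 3 high-dose libraries lay below every low-dose and vehicle library, and the log2 fold change was -1.03 ± 0.25 (adjusted p = 0.0123). The standard errors given for COX6B2 are likely too small (see the processing section). The call was lost without low-dose replicate 1 or high-dose replicate 2 or 3, without the low-count filter and in a fit of only the compared libraries. With Longan Arillus, from the same library set and at the same doses, COX6B2 was at 0.87, 1.07 and 0.97 against 1.22, 1.07 and 1.41 CPM (0.34 ± 0.21, adjusted p = 0.665). The difference between these 2 responses was 1.37 ± 0.32 (adjusted p = 0.00961, a call lost without the low-count filter), and COX6B2 was the only member in which they differed (3.95% of all genes did).

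Longan Arillus changed no member at 500 against 20 µg/mL (0.353% of all genes upwards, 0.515% downwards), also by DESeq2, with 1 member at an unadjusted p under 0.05. That was SDHA, at 99.3 to 105 CPM at the low and 104, 111 and 120 CPM at the high dose (0.14 ± 0.05, adjusted p = 0.237), with overlapping groups.

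At the medium doses no member was called in any of the 6 replicated extracts, where 0.0224% of all genes were called with Yijin-tang, 0.0112% with Soshiho-tang, 0.0392% with Schisandrae Fructus and 0% with the other 3. Members at an unadjusted p under 0.05 numbered 9 with Longan Arillus, 3 each with Yijin-tang and Liriopis seu Ophiopogonis Tuber, 2 with Zizyphi Semen and 0 with the others. In the Longan Arillus medium group 1 library stood apart, with a sum over all members of 6773 CPM in replicate 3 against 5297 and 4896 CPM in the other libraries. The low-dose libraries were at 5140, 5221 and 5579 CPM, so only replicate 3 lay above them. With all 3 libraries the medium-dose mean was 5655 against 5313 CPM and 78 of 83 differences were positive (median 0.09). Leaving out replicate 3 turned the direction: 74 of 83 differences were negative (median -0.07). Without that library no member was called at any medium dose either, and the members at an unadjusted p under 0.05 numbered 2 with Longan Arillus and 13 with Yijin-tang. With Yijin-tang at 100 µg/mL, 75 of 83 differences were positive (median 0.11), all 78 cytosolic ribosomal protein genes were positive (median 0.12) and all 13 mitochondrially encoded subunits were negative (median -0.23), none of them called.

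Several complexes have paired isoforms, and the forms known from heart, muscle, lung or testis were at or near 0 in this line. COX6A1 was at a median of 72.2 CPM over all libraries and COX6A2 at 0, COX7A2 at 64.7 CPM and COX7A1 at 0.15 CPM, and COX4I1 was present with COX4I2 at 0. NDUFA4L2, the hypoxia-responsive relative of NDUFA4, was at 0.60 CPM (0.16 to 1.69) and NDUFA4 at 106 CPM. NDUFA4L2 was not called at any high dose, with log2 fold changes against the low dose between -0.66 with Longan Arillus and 0.72 with Yijin-tang and standard errors of 0.31 to 0.36, so that changes of this size were not detectable at its level. The differences between responses, -1.05 ± 0.49 for Longan Arillus against Zizyphi Semen and 0.93 ± 0.46 for Schisandrae Fructus against Liriopis seu Ophiopogonis Tuber, did not pass either (adjusted p = 0.272 and 0.121).

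Polygalae Radix and Aucklandiae Radix had 1 library per dose, so the values describe these libraries and no test was made. Members were counted where the log2 CPM ratio of high to low dose was at least 0.5 in size. With Polygalae Radix at 30 against 1.2 µg/mL, 69 of 83 members were lower by that measure (28.5% of all genes) and 1 was higher (27.8%). The median ratio was -1.07 over the members and 0.02 over all genes. The sum over all members was 6194 CPM at the low dose (95% Poisson interval 6160 to 6228, counting error only), 5275 at the medium and 2883 (2865 to 2902) at the high dose, 46.6% of the low-dose value. Of unscaled counts the members took 0.608, 0.544 and 0.351% from low to high dose, so the size of the fall depends on the scaling. No other scaling was run for the extracts with 1 library per dose. Every complex was lower, from 38.4% of the low-dose sum in complex V to 56.2% in complex III.

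ATP5F1A, the alpha subunit of the F1 head, was at 279, 185 and 54.1 CPM from low to high dose (-2.36), UQCRC1 at 185, 136 and 39.9 CPM (-2.21) and ATP5F1B at 443, 331 and 122 CPM (-1.86). SDHA was at 103, 85.8 and 44.2 CPM. A few members stood apart, such as NDUFV3 at 55.5, 54.3 and 60.4 CPM, UQCR11 at 49.7, 48.4 and 50.7 CPM and COX7A2L at 57.9, 59.3 and 54.6 CPM, all named after their values were seen. The only member counted as higher was the readthrough gene NDUFC2-KCTD14, at 0 CPM in the low-dose library, whose reads are split with NDUFC2 by estimate.

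The 13 subunits encoded in mitochondrial DNA did not share the lower level, with a median ratio of 0.15, 2 higher by the same measure (MT-ND4L and MT-CYB) and 0 lower. In the tricarboxylic acid cycle 15 of 16 genes were lower, and among cytosolic ribosomal proteins 70 of 78 (median -0.999). Over all genes 28.5% were lower by that measure. PPARGC1A was at 1.74, 2.73 and 9.58 CPM from low to high dose. In this high-dose library VIM was at 635 CPM against 5448 at the low dose, CD44 at 812 against 2516 CPM and SOX9 at 84.1 against 71.0 CPM, and mitochondrial transcripts took 20.3% of counts against 14.2%. The 10 glial markers summed to 8229 CPM at the low and 1656 CPM at the high dose and the 14 other markers to 179.5 and 40.6 CPM. The part of these shifts in the lower subunit level was not tested.

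**Figure D5:**
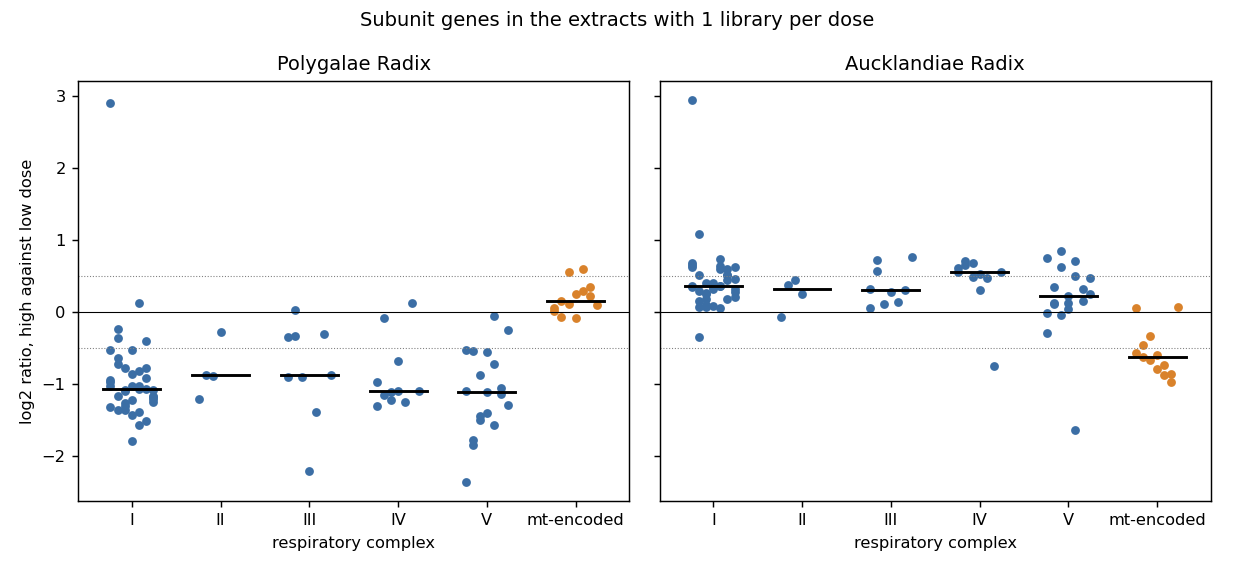
Each point is 1 gene, with its log2 ratio of high to low dose from 1 library each on the y axis, grouped by complex (blue) or as the 13 mitochondrially encoded subunits (orange), with black bars at the medians and dotted lines at ± 0.5. Nuclear-encoded subunits lie mostly below 0 with Polygalae Radix and above 0 with Aucklandiae Radix, and the mitochondrially encoded ones do not follow them.

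With Aucklandiae Radix at 160 against 6.4 µg/mL the members lay the other way, with 28 higher (17.3% of all genes) and 2 lower (22.7%), and a median of 0.35 against -0.02 over all genes. The sum over all members was 5407 CPM (5378 to 5437) at the low, 6450 at the medium and 6696 (6664 to 6728) at the high dose, 124% of the low-dose value. Of unscaled counts the members took 0.523, 0.641 and 0.686% from low to high dose. Complex IV had the largest ratio, at 144%, and complex V the smallest, at 113%. COX4I1 was at 99.4, 130 and 152 CPM from low to high dose and COX5A at 51.7, 65.1 and 84.3 CPM. ATP5F1A, at 233, 255 and 189 CPM, and NDUFS1, at 55.0, 54.5 and 43.0 CPM, were lower at the high dose. The 2 members counted as lower were ATP5MF-PTCD1 (9.45, 8.94 and 2.98 CPM) and COX6B2 (1.01, 0.63 and 0.56 CPM).

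The mitochondrially encoded subunits again went the other way, with 9 of 13 lower, 0 higher and a median of -0.63, and mitochondrial transcripts took 10.1% of counts at the high against 14.9% at the low dose. PPARGC1A was at 1.89, 0.84 and 0.24 CPM. Of the 51 assembly factors 18 were higher and 3 lower, of 78 mitochondrial ribosomal proteins 20 higher and 0 lower, and of 78 cytosolic ribosomal proteins 7 higher and 0 lower. Over all genes 17.3% were higher and 22.7% lower by that measure. VIM was at 5105 CPM at the low and 5464 at the high dose, and SLC1A3 at 23.9 and 9.54 CPM, the 10 glial markers summed to 8086 and 7826 CPM and the 14 others to 165.2 and 106.5 CPM, and their part in the subunit values was not tested.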

How the data were processed

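The values are expected counts of 60675 genes, as deposited by the authors. Per the submitters' processing notes, FastQC 0.11.9, Trim Galore 0.6.5, STAR 2.7.3a and RSEM 1.3.3 were used with hg38. Neither the annotation used for counting nor its strand setting is given in the sources read here. Reads that match several genes are shared by estimate (10.86% of values were not whole), and values were rounded to whole numbers.

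The 54 libraries of the 19 groups with replicates were fitted together in edgeR 4.0.16 (R 4.3.3) with group as the only term, after edgeR's default expression filter and scaling by the trimmed mean of M values, with 35 residual degrees of freedom. Fold changes have a standard error of their size divided by the square root of F. Adjusted p-values are Benjamini-Hochberg values over 17851 genes, with a threshold of 0.05. CPM values are scaled the same way. For extracts with 1 library per dose, log2 CPM with a prior count of 2 were subtracted. Genes were typed and placed by GENCODE 29.

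The members and lists were chosen with earlier results of these data known. Named in each comparison were the 5 called members with the lowest adjusted p in each direction, called members with a log2 fold change of at least 0.5 and a set followed in every extract; other called members are named to complete the counts. Same-numbered libraries of high and low dose did not deviate together in all pairs of any extract (correlations from -0.148 to 0.24), so numbers were not used as pairs there. For medium against low dose the correlations ranged from -0.0705 to 0.443. In Liriopis seu Ophiopogonis Tuber all 3 medium-dose pairs passed 0.1 (0.213, 0.426 and 0.228), which the data but not the labels give as a pairing. With the replicate block 0 members were called in that comparison, as without it. In Longan Arillus the same-numbered medium-dose values were 0.0956, 0.287 and 0.443, the last for replicate 3, which stands apart. Differently numbered libraries ranged there from -0.381 to 0.331. In 51 pairs of libraries of a group the chi-square per degree of freedom was at least 2.148, so no library was a copy. On data simulated for the Schisandrae Fructus comparison over 17851 genes, the test recovered 42 of 100 genes changed 1.2-fold and 100 of 100 changed 1.5-fold, with 12 false among 154 calls. The changed genes all had high mean counts and were far fewer than the genes called in the real comparison. Spread followed edgeR's trend with level, without a spread of each gene's own. The result does not cover members with few counts, such as COX6B2 (mean count 25.73) and NDUFA4L2 (16.4). Alternatives were another scaling, no filter, a replicate block, only the libraries compared, a correction for length and GC content, DESeq2 1.42.0, leaving out each library and, chosen after seeing the data, adding pseudogene counts and leaving out the Longan Arillus library that stands apart.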

Additional observations from a re-analysis of the deposited data

Results flagged for a closer look

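The response to the high dose differed between Schisandrae Fructus and Liriopis seu Ophiopogonis Tuber, 2 extracts of one library set, by a test of the difference itself, in SDHA (0.52), UQCRC2 (0.27), COX6B2 (1.37), NDUFA9 (-0.37), NDUFB10 (-0.41) and NDUFA5 (-0.28), all as log2 differences of high against low dose. It also differed between Longan Arillus and Zizyphi Semen in COX6B2 (1.37), a gene at about 1 CPM. No group had 4 or more libraries, so single libraries were not screened by their distance from the others.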

How the results depend on the processing

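At the high doses no called member changed sign. At the medium dose of Longan Arillus the median log2 difference of the members turned from 0.09 to -0.07 without replicate 3. Depth limits COX6B2, NDUFA4L2 and NDUFC2-KCTD14, with at most 2.37 CPM. Counts of called members moved as follows. Schisandrae Fructus, with 23, had 35 without the low-count filter, 38 with only the libraries compared, 40 with the length and GC correction and 16 to 31 with 1 library left out, the highest without replicate 3 of the Longan Arillus medium group, a choice made after seeing the data. Soshiho-tang, with 0, had 1 with DESeq2's size factors, without the filter, with a replicate block and with DESeq2, 2 with the length and GC correction, 12 with only the libraries compared and 0 to 1 with 1 library left out. Yijin-tang, with 0, had 1 without the filter, with only the libraries compared and with the length and GC correction, and 0 to 1 with 1 library left out. Zizyphi Semen, with 1, had 0 with only the libraries compared and 0 to 1 with 1 library left out, and without the filter 1 other member in place of COX6B2 (adjusted p = 0.0537). The difference between Schisandrae Fructus and Liriopis seu Ophiopogonis Tuber, with 6, had 10 without that Longan Arillus library, 12 without the filter and 15 with the length and GC correction, under which NDUFA9 lost its call, and that between Longan Arillus and Zizyphi Semen, with 1, had 0 without the filter. The cause of these moves was not tested. With the replicate block Schisandrae Fructus had 26, and apart from Soshiho-tang the block moved no count by over 1.5 times. Where a group was left with 1 library, that library is taken to vary like the other groups. Without the most abundant member the log2 ratio of complex sums was 0.00796 in complex II and -0.108 in complex V with Schisandrae Fructus and -0.0533 in complex II with Longan Arillus. With Soshiho-tang it ranged from -0.0531 to -0.00892 in complex I and from -0.0822 to -0.0465 over all members with 1 library left out. Of the values of single members, 38 lost the call under an alternative and 339 kept direction and call.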
